A study of Mus musculus with 32 samples.

Results

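The early response of mouse embryonic fibroblasts (MEFs) to the reprogramming medium A2S was read at day 2 against serum medium (FBS) at day 3, in counts of unique molecular identifiers (UMIs) per gene. Barcodes that the authors had listed as irradiated feeder MEFs were dropped, and the UMIs of the other 821 cells were summed per library, 352 cells with A2S and 469 with FBS. They came from 4 of 32 libraries and 821 of 7645 such cells in the series. Every gene that passed a count filter over the 32 libraries was compared. The days differ by 1, so medium and day cannot be told apart. A2S joins ascorbic acid (50 ug/mL), the 2i pair CHIR-99021 and PD-0325901, and SGC0946 (5 uM). Per the shared culture text, the cells sat on irradiated feeder MEFs in embryonic stem cell (ESC) medium with 15% serum and the cytokine LIF, with doxycycline at 2 ug/mL and SGC0946 given at day 0 and 2i 12 h later. FBS day 3 carries the treatment label "None", and the labels used here do not say which of these additives, doxycycline included, its cultures received. The doxycycline-driven transgene is not described there either. ESCs of the V6.5 line, with A2S (labelled day 2) and without, served as another pair for the same medium. For levels, untreated MEFs, A2S day 4, FBS day 6 and the day 4 media A2 (no SGC0946), S2 (no ascorbic acid) and AS (no 2i) were read as well. The labels name 2 replicates per group, A and B, and do not call them separate cultures. The p-values therefore rest on a spread between libraries that may be technical.

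PD-0325901 inhibits the kinase MEK, which activates ERK, and ERK signalling induces the immediate-early transcription factors and the phosphatases and Sprouty proteins that damp it. CHIR-99021 inhibits the kinase GSK3, which otherwise marks beta-catenin for destruction, so that Wnt target genes such as Axin2 are induced. SGC0946 inhibits DOT1L, a histone H3 lysine methyltransferase of transcribed genes, and ascorbic acid is a cofactor of collagen hydroxylases and of the TET and JmjC dioxygenases that demethylate DNA and histones. In fibroblasts that reprogram, the matrix and mesenchymal programme is lost before pluripotency genes come on.

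The A2S day 2 libraries held 163 and 189 kept cells with 3725348 and 4323453 UMIs, and the FBS day 3 libraries 230 and 239 cells with 3558985 and 3275617 UMIs. A2S cells were deeper, with medians of 21404 and 23334 UMIs per cell, against 14366 and 12427 in FBS cells. Listed feeder barcodes, which were left out, made up 27.2% and 23.2% of barcodes with A2S and 35.8% and 26.9% with FBS. No kept barcode was shared among the 4 libraries. Levels are CPM, UMI counts scaled to a common library size with TMM factors, and fold changes are log2 values ± SE of A2S day 2 over FBS day 3. They come from an edgeR quasi-likelihood fit of all 32 libraries, with a gene called at an adjusted p (Benjamini-Hochberg) under 0.05. Since cells are summed, a share of cells and a level per cell cannot be told apart in these folds. In 4 genes chosen after their values were seen, the 6 A2S fibroblast libraries of the series stood apart from the other 26. Eif4a1, a translation helicase gene, was at 22.2 to 28.3 CPM in the 6 libraries, against 291 to 1070 in the others. The phosphatase gene Acp1 was at 11.8 to 18.7 CPM, against 43.9 to 126 in the others, and Stard3nl at 32.7 to 46.7 CPM, against 70.8 to 122. Dennd4c was at 13.2 to 18.7 CPM in those 6, against 0 to 6.82 in the others. A2S-treated ESCs were not among the libraries that stood apart, and the part of medium or library preparation in this was not tested.

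Of 13228 genes tested, 3396 (25.7%) were called: 1568 (11.9%) were higher with A2S at day 2 and 1828 (13.8%) lower, and 4759 had an unadjusted p under 0.05. Among the called genes, 1100 differed by 2-fold or more, 392 of them higher and 708 lower with A2S. The median log2 fold change over all genes was 0.0. Counts fell to 687 higher and 971 lower when each cell was thinned to 5000 UMIs, and to 1017 higher and 1183 lower without A2S day 2 replicate A. Without the other 3 libraries in turn, 1033 to 1077 were higher and 1282 to 1332 lower. Called genes at 50 CPM or more, without overlap between the libraries of the 2 groups, were ranked by size of change. Slc13a5, Sprr2b and Bex1 came first among the higher genes and Egr1, H19 and Mgp among the lower ones. Outside the rule for named genes, several were picked for printing after their values were seen. Of the receptor, transcription factor and ERK genes these were Erg, Flt1, Fos, Jun, Junb, Nr4a1, Ier2, Zfp36, Spry2, Spry4, Etv5, Ccnd1 and Hoxc8. Of the metabolic, matrix and other genes they were Hmgcs1, Srebf2, Psat1, Mthfd2, Atf4, Ddit3, Hspa5, Nupr1, Asns, Gclm, Fn1, Col1a2, Slc2a1, Vegfa, Vim, Snai1, Meg3, Mki67, Cdkn2a and Isg15.

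**Figure D1:**
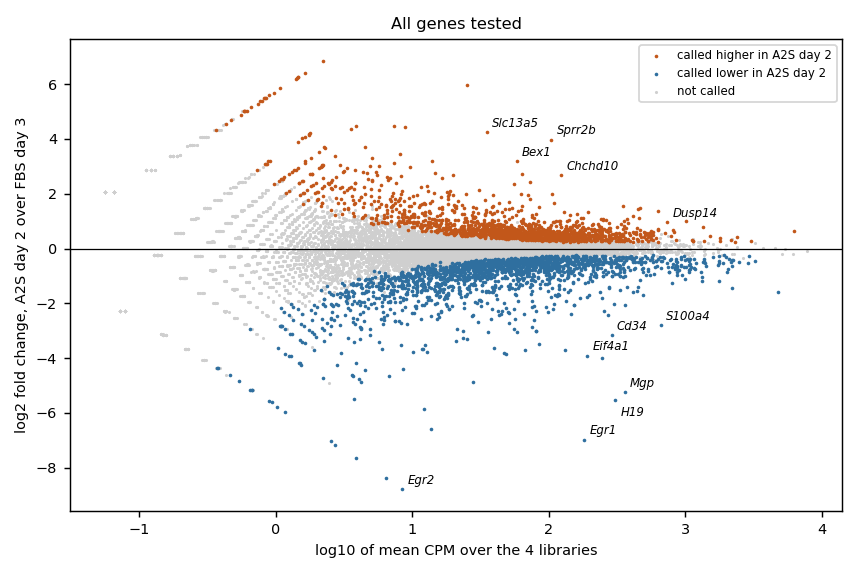
Log2 fold change of A2S day 2 over FBS day 3 (vertical axis) against the log10 of the mean CPM over the 4 libraries (horizontal axis) for each gene tested, without 373 genes that had no UMI in these 4 libraries. Coloured points were called at an adjusted p under 0.05. The lower side reaches further than the higher side, with Egr1, H19 and Mgp among its most expressed genes.

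Among the genes that rose, Slc13a5 (chromosome 11, 72241989 to 72267222, mm10), the plasma membrane citrate transporter, was at 73.9 and 59.3 CPM in the A2S day 2 libraries, against 1.44 and 5.64 CPM in the FBS day 3 libraries (log2 4.25 ± 0.46, adjusted p = 2.46e-08). Its log2 fold change was 3.55 without FBS day 3 replicate A and 5.49 without replicate B. Sprr2b, a cornified envelope gene with near-identical paralogs that the authors' counting may split, was at 255 and 138 CPM with A2S at day 2 and 23.6 and 0.626 CPM with FBS at day 3 (log2 3.97 ± 0.50, adjusted p = 4.44e-07). It varied between replicates, and its log2 fold change was 8.20 without FBS day 3 replicate A and 3.05 without replicate B. Both genes were at most 1.20 CPM in MEFs. In each case the A2S libraries lay above both FBS libraries, as the choice of genes required.

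Bex1, a small adaptor protein gene of neurons and ESCs, was at 107 and 102 CPM in the A2S day 2 libraries, against 11.2 and 11.9 CPM in the FBS day 3 libraries (log2 3.18 ± 0.22, adjusted p = 2.19e-12). Chchd10, which encodes a protein of the mitochondrial intermembrane space, was at 229 and 198 CPM with A2S at day 2 and 32.8 and 34.1 CPM with FBS at day 3 (log2 2.67 ± 0.15, adjusted p = 1.25e-14). A2S day 4 libraries had 368 and 315 CPM of Bex1 and 593 and 611 CPM of Chchd10, against 748 and 811 CPM of Bex1 and 1192 and 1173 CPM of Chchd10 in ESCs. At day 2 both genes therefore stood between the serum and the ESC levels.

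Further genes that rose were the ubiquitin hydrolase gene Uchl1 (log2 2.44 ± 0.21, adjusted p = 2.68e-10), the endocytic receptor gene Lrp2 (log2 2.12 ± 0.34, adjusted p = 1.64e-05) and Podxl, which encodes a sialomucin (log2 1.97 ± 0.15, adjusted p = 2.90e-11). The glutamine transporter gene Slc1a5 was at 171 and 166 CPM in the A2S day 2 libraries, against 51.5 and 33.2 CPM in the FBS day 3 libraries (log2 1.98 ± 0.14, adjusted p = 5.36e-12). Elmod1 (log2 2.34 ± 0.25, adjusted p = 2.53e-08), the tubulin gene Tuba4a (log2 1.98 ± 0.14, adjusted p = 5.41e-12) and Hmox1, which encodes the haem oxygenase (log2 1.66 ± 0.23, adjusted p = 1.92e-06), rose as well. Podxl was far higher in A2S fibroblasts at day 4, with 331 and 301 CPM, than in ESCs, with 18.1 and 29.6 CPM. Elmod1 had no UMI in ESC replicate A and 2.59 CPM in replicate B. Neither gene stood at its A2S level in ESCs.

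On the lower side, Mgp (chromosome 6, 136872435 to 136875823), which encodes the matrix Gla protein, an inhibitor of calcification, was at 17.9 and 18.9 CPM in the A2S day 2 libraries, against 732 and 667 CPM in the FBS day 3 libraries (log2 -5.24 ± 0.48, adjusted p = 9.01e-10). H19, an imprinted long non-coding RNA, was at 10.6 and 15.3 CPM with A2S at day 2 and 700.4 and 505 CPM with FBS at day 3 (log2 -5.52 ± 0.65, adjusted p = 1.12e-07), or -4.10 with listed cells kept. S1pr3, a sphingosine 1-phosphate receptor gene, was at 1.58 and 2.02 CPM in the A2S day 2 libraries, against 53.5 and 54.5 CPM in the FBS day 3 libraries (log2 -4.86 ± 0.33, adjusted p = 1.70e-12), -3.48 with listed cells kept and -8.78 after thinning. Both A2S libraries lay below both FBS libraries in all 3 genes, as the choice of genes required. MEFs held 961 and 917 CPM of Mgp, 1211 and 1149.8 CPM of H19 and 87.7 and 86.4 CPM of S1pr3, so the FBS libraries lay nearer to the untreated cells.

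Further genes among the most lowered ones encode secreted factors, receptors and a binding protein. The growth factor gene Fgf7 was at 5.01 and 7.42 CPM with A2S at day 2 and 87.8 and 93.3 CPM with FBS at day 3 (log2 -3.84 ± 0.28, adjusted p = 1.19e-11; log2 -2.18 with listed cells kept), and the chemokine gene Cxcl12 at 6.33 and 5.39 CPM with A2S at day 2 and 59.0 and 87.7 CPM with FBS at day 3 (log2 -3.64 ± 0.33, adjusted p = 9.90e-10; -2.75 with listed cells kept). Osteopontin, from Spp1, was at 23.2 and 34.4 CPM in the A2S day 2 libraries, against 386 and 541 CPM in the FBS day 3 libraries (log2 -3.99 ± 0.30, adjusted p = 1.42e-11; -4.71 with listed cells kept). The other chemokine among the most changed genes, Ppbp, had log2 -3.80 ± 0.61 (adjusted p = 1.79e-05; -2.37 with listed cells kept), and the secreted Wnt modulator Sfrp2 log2 -3.04 ± 0.27 (adjusted p = 5.77e-10). Crabp1, which encodes a retinoic acid binding protein, had log2 -3.71 ± 0.20 (adjusted p = 1.25e-14). Msln, the mesothelin gene, had log2 -3.47 ± 0.45 (adjusted p = 6.61e-07), and the interleukin 33 receptor gene Il1rl1 log2 -3.04 ± 0.28 (adjusted p = 1.03e-09; -3.91 with listed cells kept). Eif4a1, one of the genes in which A2S libraries stood apart, had log2 -3.91 ± 0.12 (adjusted p = 7.81e-22) and -1.79 with listed cells kept.

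Cd34, a sialomucin of stromal, endothelial and blood progenitor cells, was at 58.1 and 57.3 CPM in the A2S day 2 libraries, against 532 and 506 CPM in the FBS day 3 libraries (log2 -3.17 ± 0.12, adjusted p = 1.98e-18). Untreated MEFs had 3.40 and 2.80 CPM, so both media stood above them. The day 4 media without one component held 171 and 138 CPM (A2), 86.5 and 85.7 CPM (S2) and 704 and 712 CPM (AS, no 2i), against 150.5 and 139 CPM in complete A2S at day 4. FBS day 6 held 742 and 809.6 CPM. Among 11 tested endothelial markers, Erg and Flt1 fell with Cd34 and Ramp2 rose. The Ramp2 call was lost without A2S day 2 replicate A and without either FBS library. The 3 lower calls were 1 without A2S day 2 replicate B or FBS day 3 replicate A, after thinning and by DESeq2, and 2 without A2S day 2 replicate A. The defining markers Pecam1, Cdh5, Tie1, Emcn, Sox17 and Icam2 were at 0 in all 4 libraries.

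**Figure D2:**
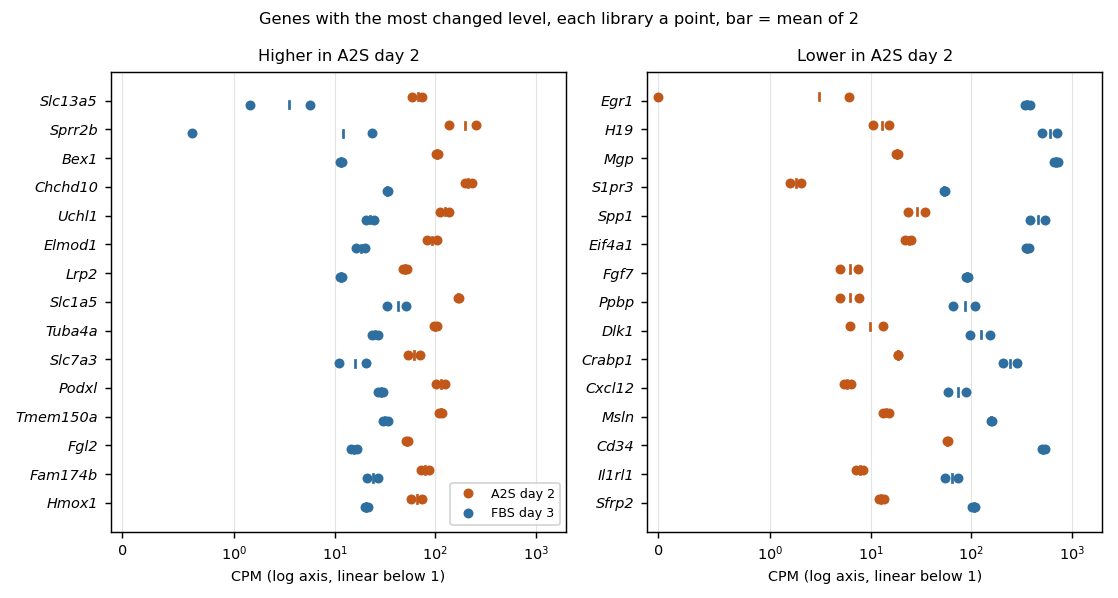
CPM (horizontal axis, logarithmic above 1 and linear below) of the 15 most raised and 15 most lowered called genes of at least 50 CPM, with A2S day 2 above FBS day 3 for each gene, a point per library and a bar at the mean of 2. The 2 A2S points never overlap the 2 FBS points, as the choice of genes required.

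The immediate-early genes, the first transcription factors switched on by growth factor signalling, were mostly lower with A2S. Of 26 tested, 16 fell, 1 rose and 9 were not called, with a median log2 fold change of -0.86 against 0.0 for all genes and 13.8% called lower overall. Egr1, a zinc finger factor that ERK induces, was at 6.07 and 0 CPM in the A2S day 2 libraries, against 341 and 378 CPM in the FBS day 3 libraries (log2 -6.98 ± 0.31, adjusted p = 6.32e-17). All 23 A2S UMIs came from replicate A. Leaving that library out gave log2 -13.2, which is no bound since the remaining library had none, and leaving out replicate B gave -5.88. With listed cells kept the value was -6.05. Its relatives Egr2 and Egr3 had no UMI in either A2S day 2 library. Egr2 had 113 UMIs in the FBS day 3 libraries, so it was at least 46.5-fold lower with A2S, against a floor of 3 UMIs over the group. Egr3 had 86 UMIs with FBS and was at least 35.4-fold lower with A2S.

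The AP-1 subunit genes did not move alike. Fos was at 33.3 and 43.8 CPM in the A2S day 2 libraries, against 192 and 163 CPM in the FBS day 3 libraries (log2 -2.19 ± 0.26, adjusted p = 1.09e-07). Fosb had 4 UMIs with A2S and 88 with FBS (log2 -4.66 ± 0.93, adjusted p = 3.12e-04), with log2 -5.45 without A2S day 2 replicate B, -3.26 with listed cells kept and -6.75 after thinning. Jun was at 64.7 and 71.0 CPM with A2S at day 2 and 132 and 117 CPM with FBS at day 3 (log2 -0.87 ± 0.16, adjusted p = 7.32e-05). Junb, at 153 and 159 CPM with A2S at day 2 and 142 and 137 CPM with FBS at day 3, was not called (log2 0.16 ± 0.12, adjusted p = 0.335). The orphan nuclear receptor gene Nr4a1 was at 28.5 and 26.7 CPM in the A2S day 2 libraries, against 152 and 115 CPM in the FBS day 3 libraries (log2 -2.28 ± 0.17, adjusted p = 1.01e-11). Ier2 was at 50.7 and 49.2 CPM with A2S at day 2 and 138 and 157 CPM with FBS at day 3 (log2 -1.56 ± 0.13, adjusted p = 7.71e-11). Myc, a transcription factor that also serves as a reprogramming factor, had log2 -0.76 ± 0.14 (adjusted p = 7.81e-05). The one member that rose, Klf2, had log2 0.76 ± 0.27 (adjusted p = 0.0398) and gave no call when any of the 4 libraries was left out (adjusted p from 0.0687 to 0.241) or after thinning (0.628).

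ERK feedback and target genes showed the same excess of lower calls, with 16 of 28 lower, 2 higher and 10 not called, and a median of -0.84. Thinned to 5000 UMIs per cell, 10 were lower. Dusp6 (chromosome 10, 99263231 to 99267489), the ERK phosphatase that reports on ERK activity, was at 11.3 and 14.8 CPM in the A2S day 2 libraries, against 41.2 and 55.8 CPM in the FBS day 3 libraries (log2 -1.87 ± 0.22, adjusted p = 1.37e-07). Errfi1, an inhibitor of the EGF receptor, was at 20.6 and 23.4 CPM with A2S at day 2 and 132 and 137 CPM with FBS at day 3 (log2 -2.61 ± 0.23, adjusted p = 3.11e-10), and Spry1, a Sprouty inhibitor of receptor signalling, at 4.49 and 6.29 CPM with A2S at day 2 and 24.8 and 29.8 CPM with FBS at day 3 (log2 -2.31 ± 0.31, adjusted p = 1.45e-06; log2 -1.61 with listed cells kept). Each of the 3 genes was lower in both A2S libraries than in either FBS library. The EGF receptor ligand gene Hbegf (log2 -1.67 ± 0.16, adjusted p = 3.35e-09), Spry2 (-1.47 ± 0.12, adjusted p = 6.57e-11) and the ETS factor gene Etv5 (-1.12 ± 0.22, adjusted p = 2.04e-04) fell too. Ccnd1, which encodes cyclin D1 and links ERK to the cell cycle, was at 642 and 615 CPM in the A2S day 2 libraries, against 1343 and 1376 CPM in the FBS day 3 libraries (log2 -1.11 ± 0.10, adjusted p = 5.33e-10). Spry4, also a Sprouty gene, gave no call (log2 -0.30 ± 0.36, adjusted p = 0.598).

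Against this trend, Dusp14, a dual-specificity phosphatase gene, was at 979 and 979 CPM in the A2S day 2 libraries, against 498 and 502 CPM in the FBS day 3 libraries (log2 0.97 ± 0.14, adjusted p = 6.17e-06). A2S day 4, the lowest reprogramming group read here, held 404 and 341 CPM, against 45.7 and 41.7 CPM in MEFs. Phlda1 was the second member called higher (log2 0.47 ± 0.18, adjusted p = 0.0479), a call lost when any of the 4 libraries was left out (adjusted p from 0.0992 to 0.189). Phlda1 also gave no call by DESeq2 (0.0948), with RLE factors (0.0525), with listed cells kept (0.107) and after thinning (0.275). Of the kinase genes themselves, Map2k1 gave no call (log2 0.08 ± 0.09, adjusted p = 0.57). Mapk3 fell (log2 -0.71 ± 0.15, adjusted p = 7.81e-04), a call lost without A2S day 2 replicate A (adjusted p = 0.0524).

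At day 4, Egr1 was low in the fibroblast groups given 2i. It was at 2.43 and 3.15 CPM in A2S day 4, 10.3 and 8.57 CPM in A2 and 5.52 and 3.28 CPM in S2, all with 2i. In AS, which lacks 2i, it was at 138 and 94.5 CPM, in FBS day 6 at 254 and 279.8 CPM, and in MEFs at 543 and 471 CPM. None of these 6 day 4 libraries with 2i, nor either A2S day 2 library, reached the level of any AS day 4, FBS day 3, FBS day 6 or MEF library. Dusp6 was also lower in the day 4 groups with 2i than in AS and FBS day 6, though less steeply. It was at 24.0 and 22.1 CPM in A2S day 4, 23.1 and 23.6 in A2 and 29.3 and 18.0 in S2, against 68.0 and 41.7 in AS and 84.2 and 83.5 in FBS day 6. These are levels without a test, the day 6 libraries with 2i were not read here, and the day 4 and day 6 groups share no library with the day 2 and day 3 groups.

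In ESCs the same medium gave other results for part of these genes. A2S ESCs against ESCs had 6178 of 13228 genes called (46.7%), and the difference between the fibroblast and ESC contrasts was called for 4968 (37.6%; 18.3% positive and 19.2% negative). Egr1 was at 175 and 154 CPM in A2S ESCs, against 57.2 and 51.8 CPM in ESCs (log2 1.59 ± 0.22, adjusted p = 4.63e-07), the opposite direction to the fibroblasts. The difference of the contrasts was -8.58 ± 0.39 (adjusted p = 7.30e-17). Dusp6 was at 9.55 and 6.47 CPM in A2S ESCs, against 45.9 and 54.7 CPM in ESCs (log2 -2.65 ± 0.25, adjusted p = 4.47e-10), and its difference of contrasts was not called (0.78 ± 0.36, adjusted p = 0.0863). Fosb fell in A2S ESCs to 2.46 and 2.53 CPM, against 112 and 121 CPM in ESCs, and Spry1 to 16.9 and 18.6 CPM, against 49.2 and 37.4 CPM. Dusp6, Fosb and Spry1 were thus lower with A2S in both cell types, and only Egr1 of the 4 turned round. Errfi1 gave no call in ESCs (log2 -0.22 ± 0.26, adjusted p = 0.519), with a difference of contrasts of -2.39 ± 0.35 (adjusted p = 2.09e-06).

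Wnt and beta-catenin targets were close to the background, with 3 of 26 tested members higher, 5 lower and 18 not called, and a median of 0.17. None of 18 was higher after thinning, and 1 without FBS day 3 replicate A. Axin2, the feedback inhibitor that beta-catenin induces, was at 13.7 and 11.7 CPM in the A2S day 2 libraries, against 5.47 and 4.07 CPM in the FBS day 3 libraries (log2 1.39 ± 0.30, adjusted p = 5.92e-04), a call lost after thinning to 5000 UMIs (adjusted p = 0.313). In A2S ESCs it was at 45.8 and 40.5 CPM, against 8.42 and 9.25 CPM in ESCs (log2 2.28 ± 0.25, adjusted p = 6.02e-09), and the contrasts gave no called difference (-0.89 ± 0.41, adjusted p = 0.0865). A2S day 4 held 24.3 and 21.5 CPM of Axin2, and AS, which lacks 2i, 1.01 and 1.80 CPM. The Dickkopf receptor gene Kremen1 had log2 0.51 ± 0.15 (adjusted p = 0.00935), a call lost without A2S day 2 replicate A (adjusted p = 0.181) or FBS day 3 replicate A (0.0935), with listed cells kept (0.0713) and after thinning (0.906). Members that fell were the mesenchymal factor gene Twist2, at 11.6 and 16.6 CPM with A2S at day 2 and 78.0 and 72.4 CPM with FBS at day 3 (log2 -2.40 ± 0.22, adjusted p = 1.72e-09), Tcf7l2, which encodes a partner of beta-catenin (log2 -1.15 ± 0.13, adjusted p = 6.26e-08), and Lgr4, an R-spondin receptor gene (log2 -0.97 ± 0.17, adjusted p = 4.81e-05). Gsk3b (log2 0.04 ± 0.13, adjusted p = 0.88) and Ctnnb1 (-0.12 ± 0.10, adjusted p = 0.375), which encode the CHIR-99021 target and beta-catenin, gave no call.

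**Figure D3:**
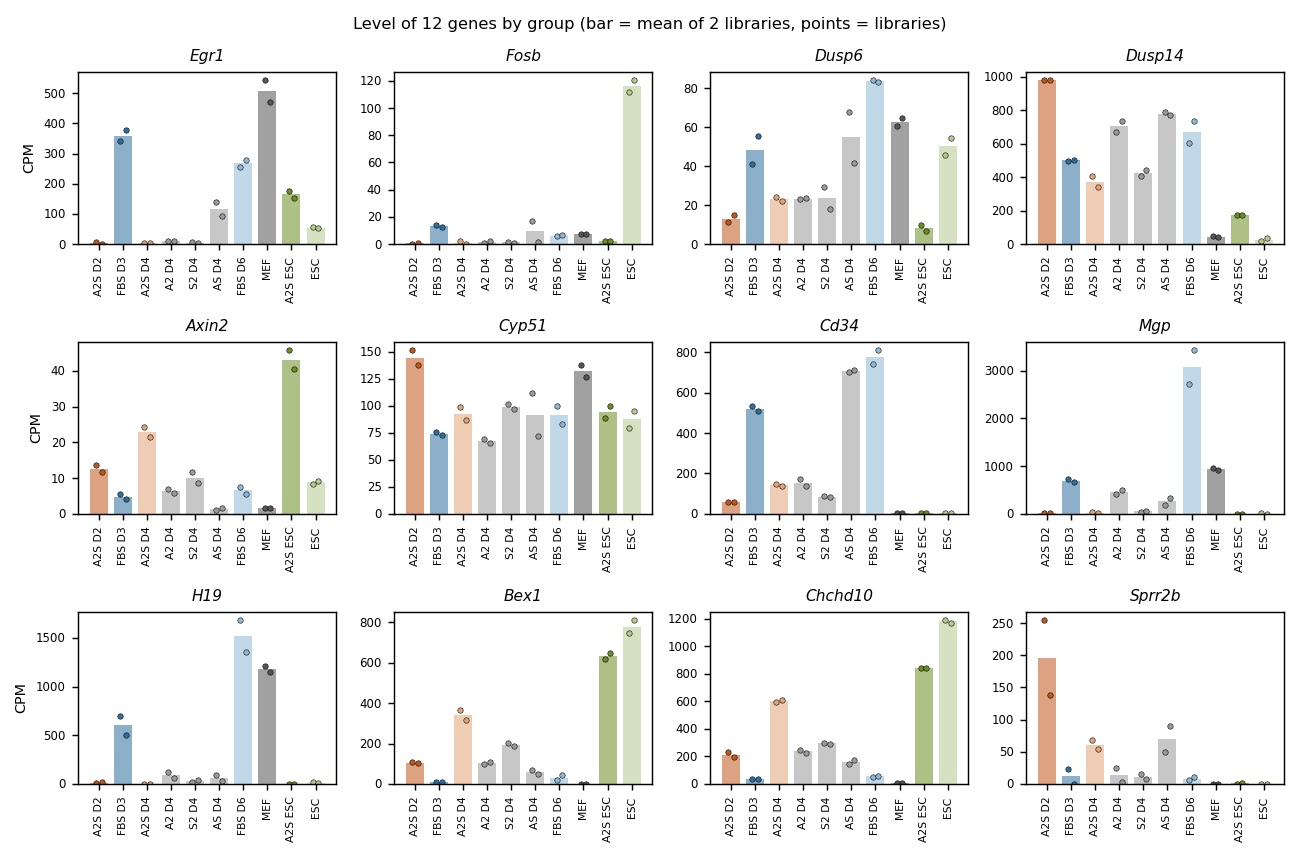
CPM (vertical axes, from 0) of 12 genes in 10 groups, bars being means of 2 libraries and points the libraries. Egr1 and Dusp6 are low in the fibroblast groups A2S, A2 and S2 and higher in AS and FBS, Cd34 is highest in FBS and AS, and Bex1 and Chchd10 reach their highest levels in ESCs.

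Many sterol synthesis genes were higher with A2S. Of 25 tested, 15 were higher, 0 lower and 10 not called, with a median log2 fold change of 0.61 and 11.9% of all genes called higher. After thinning to 5000 UMIs, 7 of 24 were called higher. Hsd17b7, a ketoreductase of the pathway, was at 61.8 and 69.0 CPM in the A2S day 2 libraries, against 27.9 and 29.4 CPM in the FBS day 3 libraries (log2 1.19 ± 0.16, adjusted p = 1.03e-06). The demethylase gene Cyp51 was at 152 and 138 CPM with A2S at day 2 and 76.0 and 73.0 CPM with FBS at day 3 (log2 0.96 ± 0.14, adjusted p = 6.21e-06). Hmgcs1, which makes HMG-CoA, was at 246 and 240.3 CPM in the A2S day 2 libraries, against 156 and 134 CPM in the FBS day 3 libraries (log2 0.75 ± 0.16, adjusted p = 5.92e-04). Srebf2, which encodes the pathway's transcription factor, was not called (log2 -0.21 ± 0.24, adjusted p = 0.572). MEFs stood near the A2S level for the genes Hmgcs1 and Cyp51, with 236 and 198 CPM of Hmgcs1 and 138 and 126 CPM of Cyp51. Over the whole list MEFs lay between the 2 media, with summed levels of 1512 and 1370 CPM. The sums were 1898 and 1791 CPM with A2S at day 2 and 1215 and 1074 CPM with FBS at day 3.

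Amino acid transport and synthesis genes of the ATF4 response, the transcription factor of the integrated stress response, made up most of the higher calls in the ATF4 and unfolded-protein list. Of its 31 tested members 14 rose, 7 fell and 10 were not called, with a median of 0.32. Without FBS day 3 replicate B 8 were higher, and after thinning to 5000 UMIs 11. The arginine transporter gene Slc7a3 was at 69.9 and 53.5 CPM in the A2S day 2 libraries, against 10.9 and 20.7 CPM in the FBS day 3 libraries (log2 1.97 ± 0.24, adjusted p = 1.52e-07). The cystathionine lyase gene Cth was at 186 and 182 CPM with A2S at day 2 and 63.6 and 82.1 CPM with FBS at day 3 (log2 1.34 ± 0.21, adjusted p = 1.60e-05). Slc7a11, the cystine transporter gene, was at 31.7 and 19.8 CPM with A2S at day 2 and 9.79 and 3.76 CPM with FBS at day 3 (log2 1.89 ± 0.43, adjusted p = 0.00135), a call lost without FBS day 3 replicate B (adjusted p = 0.0517), with log2 2.76 without replicate A and 2.59 after thinning. The serine synthesis gene Psat1 (log2 0.57 ± 0.09, adjusted p = 6.19e-06) and the mitochondrial folate gene Mthfd2 (0.82 ± 0.12, adjusted p = 7.42e-06) rose as well. Atf4 (0.12 ± 0.09, adjusted p = 0.355) and Ddit3, the stress factor CHOP (0.02 ± 0.28, adjusted p = 0.993), were not called. Of the members that fell, Pdia4, Hsp90b1, Sdf2l1 and Dnajb9 belong to protein folding in the endoplasmic reticulum. The others were Xbp1, Stc2 and Phgdh, which like Psat1 is a serine synthesis gene. The Dnajb9 call was lost by DESeq2 (adjusted p = 0.0684). Pdia4 was at 17.2 and 19.8 CPM with A2S at day 2 and 51.5 and 58.9 CPM with FBS at day 3 (log2 -1.57 ± 0.21, adjusted p = 7.58e-07) and Hsp90b1 at 631 and 605 CPM with A2S at day 2 and 1050.5 and 1204 CPM with FBS at day 3 (log2 -0.87 ± 0.09, adjusted p = 2.69e-08). The chaperone gene Hspa5 gave no call (log2 0.09 ± 0.09, adjusted p = 0.518).

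The promoters of 10 of the 14 higher ATF4-list genes are in the RefSeq table used (GRCm38.p6, 300 bases from 250 before to 50 after each start). The composite ATF4 motif TGATGNAA was searched on both strands after the fold changes were known. It was in 5 of the 10 (50.0%), in 271 of 10052 tested genes with a window (2.7%) and in 4.51% of all 27025 genes with one. Over all genes it was in 3.1% of called higher and 2.53% of called lower promoters. The list was drawn up as ATF4-response genes and its other members were not counted, so the 50.0% does not bear on which members rose. The 250 bases before the start are shown, 5′ to 3′ on the gene's strand, for the 3 of the 5 genes that have 1 annotated start and the motif in those bases, with the motif in capitals. Slc7a11 lies at chr3:50443614-50443863, minus strand, Nupr1 at chr7:126625471-126625720, minus strand, and Asns at chr6:7693210-7693459, minus strand.
Slc7a11: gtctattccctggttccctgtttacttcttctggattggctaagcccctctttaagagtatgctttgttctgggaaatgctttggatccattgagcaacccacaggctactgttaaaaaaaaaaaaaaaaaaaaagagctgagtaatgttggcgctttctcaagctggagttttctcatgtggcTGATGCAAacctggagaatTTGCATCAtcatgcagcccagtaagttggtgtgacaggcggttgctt
Nupr1: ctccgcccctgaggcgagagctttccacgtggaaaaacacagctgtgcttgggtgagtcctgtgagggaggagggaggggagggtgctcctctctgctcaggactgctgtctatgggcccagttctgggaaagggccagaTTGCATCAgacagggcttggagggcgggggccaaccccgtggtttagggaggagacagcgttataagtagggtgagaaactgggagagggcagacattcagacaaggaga
Asns: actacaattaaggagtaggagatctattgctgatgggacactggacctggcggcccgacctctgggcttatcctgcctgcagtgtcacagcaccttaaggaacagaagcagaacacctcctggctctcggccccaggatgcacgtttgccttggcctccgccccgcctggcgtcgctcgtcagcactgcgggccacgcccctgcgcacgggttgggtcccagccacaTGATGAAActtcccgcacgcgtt
The Slc7a11 promoter holds 2 matches in opposite orientations and the others 1 each. Nupr1, a stress-induced chromatin protein gene, was at 611 and 496 CPM with A2S at day 2 and 343 and 323 CPM with FBS at day 3 (log2 0.73 ± 0.25, adjusted p = 0.0273), and Asns, the asparagine synthetase gene, at 200.04 and 147 CPM with A2S at day 2 and 126 and 115 CPM with FBS at day 3 (log2 0.52 ± 0.15, adjusted p = 0.00915). The Nupr1 call was lost without A2S day 2 replicate A (adjusted p = 0.197), FBS day 3 replicate A (0.0887) or FBS day 3 replicate B (0.133), with listed cells kept (0.357) and by DESeq2 (0.108). That of Asns was lost without A2S day 2 replicate A (0.28) or FBS day 3 replicate B (0.0912).

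For the immediate-early genes that fell, the CArG box, the site of serum response factor, was searched on both strands in the same windows. It was in 2 of 10 lower members with a window (20.0%), Egr2 and Zfp36, in 1.59% of tested genes and in 1.81% of all genes. The CRE motif TGACGTCA was in as many of the 10 (20.0%), Btg2 and Maff, and in 3.56% of tested genes. Of 12 lower ERK-list members with a window, 25.0% held the AP-1 motif, 16.7% the CRE motif and 0 the CArG box. A link of the lower genes to serum response factor was not tested. Zfp36, which encodes an mRNA decay factor, was at 33.0 and 35.7 CPM in the A2S day 2 libraries, against 91.8 and 59.8 CPM in the FBS day 3 libraries (log2 -1.14 ± 0.16, adjusted p = 3.22e-06). Its promoter, at chr7:28379229-28379478, minus strand, is shown with the CArG box in capitals.
Zfp36: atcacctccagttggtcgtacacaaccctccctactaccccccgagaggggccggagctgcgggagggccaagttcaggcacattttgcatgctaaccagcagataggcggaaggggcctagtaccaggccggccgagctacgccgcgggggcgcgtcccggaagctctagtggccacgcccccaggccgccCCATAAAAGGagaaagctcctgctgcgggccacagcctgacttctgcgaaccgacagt
Over all genes, the CArG box was in 1.76% of called higher and 2.68% of called lower promoters, and the AP-1 motif TGANTCA in 4.95% of called higher and 8.1% of called lower ones, against 6.23% of all tested. The ETS motif CCGGAAGT was in 10.4% of called higher and 6.15% of called lower promoters, against 8.62% of all tested. The TCF motif CTTTGAT was in 0 of 2 higher Wnt members with a window and in 3.04% of all tested. A match is a description of letters and not a binding site.

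Genes that build ribosomes and genes of the ribosome itself moved apart. Of 30 tested ribosome biogenesis genes, 16 rose and 0 fell, with a median of 0.33. They numbered 11 after thinning to 5000 UMIs, 23 with listed cells kept, and 9 without FBS day 3 replicate B. Rrp12, which exports preribosomes, was at 96.6 and 76.2 CPM in the A2S day 2 libraries, against 47.2 and 40.7 CPM in the FBS day 3 libraries (log2 0.97 ± 0.16, adjusted p = 1.79e-05), and the assembly factor genes Rrs1 (log2 0.85 ± 0.13, adjusted p = 1.41e-05) and Nop16 (log2 0.72 ± 0.11, adjusted p = 7.07e-06) rose too. Of 39 tested cytosolic ribosomal protein genes, 30 fell and 0 rose, with a median of -0.50. Rpl19 was at 553 and 709.8 CPM with A2S at day 2 and 1152 and 1349 CPM with FBS at day 3 (log2 -0.98 ± 0.12, adjusted p = 1.31e-07) and Rps16 at 594 and 708 CPM with A2S at day 2 and 1083 and 1174 CPM with FBS at day 3 (log2 -0.79 ± 0.10, adjusted p = 6.31e-07). Ribosomal protein genes have many processed pseudogenes, between which the authors' counting may split reads. All 84 cytosolic ribosomal protein genes took 8.73% and 8.28% of UMIs with A2S and 11.1% and 10.7% with FBS, while MEFs had 9.41% and 9.57% and A2S day 4 12.7% and 12.1%. The deeper cells of A2S day 2 moved with this share, and their part in it was not tested.

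**Figure D4:**
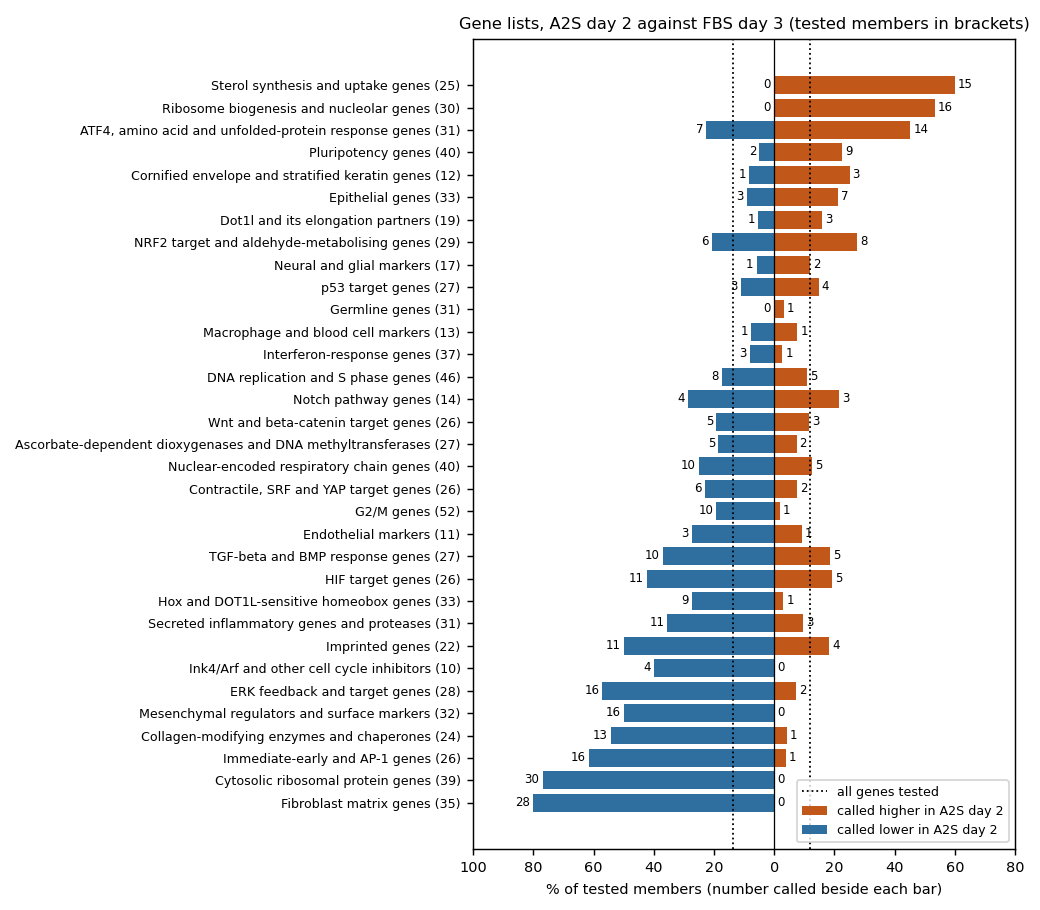
Percent of tested members called higher (right of 0) and lower (left of 0) with A2S at day 2 for each gene list of 10 or more tested genes, with the number called beside each bar. Dotted lines mark the shares over all 13228 genes, 11.9% higher and 13.8% lower. Matrix and ribosomal protein genes are the most one-sided lists on the lower side, and sterol synthesis and ribosome biogenesis genes on the higher side.

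The fibroblast matrix programme was lower with A2S. Of 35 tested matrix genes, 28 fell, 0 rose and 7 were not called, with a median of -1.07. With listed cells kept 17 fell with a median of -0.66, and after thinning to 5000 UMIs 25. Ogn, which encodes the proteoglycan mimecan, was at 13.2 and 21.8 CPM in the A2S day 2 libraries, against 119 and 168 CPM in the FBS day 3 libraries (log2 -3.01 ± 0.33, adjusted p = 2.46e-08; log2 -1.90 with listed cells kept), and the collagen VI gene Col6a3 at 16.9 and 24.9 CPM with A2S at day 2 and 97.0 and 126 CPM with FBS at day 3 (log2 -2.40 ± 0.24, adjusted p = 9.40e-09). Col3a1, of fibrillar collagen III, was at 125 and 153 CPM in the A2S day 2 libraries, against 573 and 594 CPM in the FBS day 3 libraries (log2 -2.07 ± 0.18, adjusted p = 4.53e-10). Fibronectin, from Fn1, was at 826 and 907 CPM with A2S at day 2 and 1652 and 1918 CPM with FBS at day 3 (log2 -1.04 ± 0.12, adjusted p = 1.44e-07; -1.77 with listed cells kept). The 2 chains of collagen I differed. Col1a2 was at 1425 and 1452 CPM with A2S at day 2 and 2625 and 2617 CPM with FBS at day 3 (log2 -0.87 ± 0.16, adjusted p = 8.60e-05), a call lost with listed cells kept (log2 -0.18, adjusted p = 0.631). Col1a1 was at 261 and 247 CPM with A2S at day 2 and 309 and 232 CPM with FBS at day 3 and not called (log2 -0.09 ± 0.24, adjusted p = 0.842). Summed over the list, matrix genes took 7787 and 9201 CPM with A2S and 13488 and 14008 CPM with FBS, against 46024 and 43119 CPM in MEFs. Both media therefore lay well below the starting cells, and A2S further.

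Enzymes that modify and assemble collagen, whose prolyl hydroxylases use ascorbate, followed the matrix genes, with 13 of 24 lower, 1 higher and 10 not called and a median of -0.41 (8 lower after thinning or without A2S day 2 replicate A). The crosslinking oxidase gene Loxl3 was at 29.0 and 36.4 CPM in the A2S day 2 libraries, against 161 and 168 CPM in the FBS day 3 libraries (log2 -2.32 ± 0.15, adjusted p = 9.47e-13), and Pcolce, the procollagen proteinase enhancer gene, at 89.2 and 84.5 CPM with A2S at day 2 and 446 and 398 CPM with FBS at day 3 (log2 -2.28 ± 0.15, adjusted p = 1.19e-12). P4ha1, the catalytic chain of prolyl 4-hydroxylase, was at 26.4 and 26.7 CPM with A2S at day 2 and 69.7 and 80.5 CPM with FBS at day 3 (log2 -1.50 ± 0.14, adjusted p = 2.56e-09). Among HIF target genes, which answer to low oxygen and to HIF prolyl hydroxylases, 11 of 26 fell, 5 rose and 10 were not called, with a median of -0.42. In this list 6 fell and 3 rose after thinning. There were 6 that fell without A2S day 2 replicate B, and 3 rose without A2S day 2 replicate A or FBS day 3 replicate B. Pgk1, a glycolytic kinase gene, was at 129 and 169 CPM with A2S at day 2 and 253 and 337 CPM with FBS at day 3 (log2 -0.98 ± 0.18, adjusted p = 9.62e-05). The repressor gene Bhlhe40 rose to 278 and 277 CPM in the A2S day 2 libraries, against 104 and 113 CPM in the FBS day 3 libraries (log2 1.35 ± 0.14, adjusted p = 6.38e-09). The glucose transporter gene Slc2a1 (-0.13 ± 0.14, adjusted p = 0.566) and Vegfa (-0.42 ± 0.16, adjusted p = 0.0613) gave no call. The list therefore moved in both directions.

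Mesenchymal regulators and surface markers had 16 of 32 members lower, 0 higher and 16 not called, with a median of -0.49 (10 lower without A2S day 2 replicate A). S100a4, the fibroblast-specific protein gene, was at 169 and 162 CPM in the A2S day 2 libraries, against 1208 and 1114 CPM in the FBS day 3 libraries (log2 -2.81 ± 0.21, adjusted p = 1.68e-11; log2 -2.10 with listed cells kept). The PDGF receptor genes Pdgfra (log2 -2.13 ± 0.32, adjusted p = 9.89e-06; -3.38 with listed cells kept) and Pdgfrb (log2 -2.04 ± 0.25, adjusted p = 1.74e-07) and the surface glycoprotein gene Thy1, at 152 and 153 CPM with A2S at day 2 and 262 and 309 CPM with FBS at day 3 (log2 -0.90 ± 0.16, adjusted p = 9.05e-05), fell. Vim, the vimentin gene, was at 6149 and 5429.5 CPM with A2S at day 2 and 6345 and 6809 CPM with FBS at day 3 and not called (log2 -0.18 ± 0.09, adjusted p = 0.16), nor were the master regulators Twist1 (-0.07 ± 0.18, adjusted p = 0.84) and Snai1 (-0.63 ± 0.30, adjusted p = 0.126). Contractile and YAP target genes gave 6 of 26 lower (23.1%) and 2 higher (7.69%), against 13.8% and 11.9% of all genes, with a median of -0.12. They gave 2 lower and 5 higher with listed cells kept, 3 lower without A2S day 2 replicate A and 2 lower without FBS day 3 replicate B. The higher ones were the smooth muscle calponin gene Cnn1, at 21.9 and 20.7 CPM with A2S at day 2 and 3.45 and 9.40 CPM with FBS at day 3 (log2 1.75 ± 0.33, adjusted p = 1.63e-04; 2.61 without FBS day 3 replicate B), and Ctgf (log2 1.10 ± 0.27, adjusted p = 0.00227; adjusted p = 0.0911 without A2S day 2 replicate B).

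Imprinted genes, many of which form a network of fetal growth regulators, had 11 of 22 lower, 4 higher and 7 not called, with a median of -0.77. The growth factor gene Igf2 was at 85.8 and 85.9 CPM in the A2S day 2 libraries, against 468 and 453 CPM in the FBS day 3 libraries (log2 -2.42 ± 0.43, adjusted p = 6.18e-05; log2 -1.63 with listed cells kept). Dlk1, a membrane ligand that restrains adipocyte differentiation, was at 13.2 and 6.29 CPM with A2S at day 2 and 154 and 96.2 CPM with FBS at day 3 (log2 -3.71 ± 0.32, adjusted p = 3.46e-10; -4.31 without A2S day 2 replicate A). Meg3, the maternal non-coding RNA of the Dlk1 locus, was at 144 and 141 CPM with A2S at day 2 and 336 and 232 CPM with FBS at day 3 (log2 -0.999 ± 0.18, adjusted p = 1.08e-04). Peg10, derived from a retrotransposon, rose to 37.2 and 42.7 CPM in the A2S day 2 libraries, against 14.4 and 5.32 CPM in the FBS day 3 libraries (log2 2.00 ± 0.35, adjusted p = 6.13e-05; 2.90 without FBS day 3 replicate A). Paternally and maternally expressed genes were thus both among the lower members, and A2S day 4 held 2.43 and 2.63 CPM of Igf2 and 209 and 237 CPM of Peg10.

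Of S phase genes 10.9% were called higher and 17.4% lower, near the 11.9% and 13.8% of all genes, with a median of -0.03. In sum they took 5206 and 5359 CPM with A2S at day 2 and 5234 and 5158 CPM with FBS at day 3. For genes of G2 and M phase the shares were 1.92% higher and 19.2% lower, with a median of -0.16. Among 46 S phase genes, 5 rose and 8 fell (14 and 7 with listed cells kept, 2 rose without A2S day 2 replicate B, 1 without FBS day 3 replicate A and 3 without FBS day 3 replicate B). Among 52 genes of G2 and M phase, 1 rose and 10 fell (5 and 6 with listed cells kept, 5 fell without A2S day 2 replicate B and 4 without FBS day 3 replicate B). Rrm2, a ribonucleotide reductase gene, was at 912 and 908 CPM with A2S at day 2 and 626 and 699.7 CPM with FBS at day 3 (log2 0.46 ± 0.12, adjusted p = 0.00526; adjusted p = 0.0816 without FBS day 3 replicate A). The thymidine genes Tk1, at 105 and 104 CPM with A2S at day 2 and 233 and 216 CPM with FBS at day 3 (log2 -1.11 ± 0.13, adjusted p = 1.74e-07), and Tyms (log2 -1.08 ± 0.17, adjusted p = 1.79e-05) fell, as did the anaphase activator gene Cdc20 (log2 -0.98 ± 0.14, adjusted p = 4.56e-06). Mki67, a marker of cycling cells, was not called (log2 -0.12 ± 0.13, adjusted p = 0.551). Of 10 tested cell cycle inhibitors 4 fell and 0 rose, with 1 lower without FBS day 3 replicate B and 2 without either A2S library or by DESeq2. Cdkn1b, which encodes p27, was at 18.5 and 14.6 CPM with A2S at day 2 and 39.4 and 40.1 CPM with FBS at day 3 (log2 -1.27 ± 0.17, adjusted p = 1.74e-06), and the reprogramming barriers Cdkn1a (log2 0.10 ± 0.10, adjusted p = 0.514) and Cdkn2a (-0.19 ± 0.20, adjusted p = 0.539) gave no call. Targets of p53 had 4 of 27 higher (14.8%) and 3 lower (11.1%), near the 11.9% and 13.8% of all genes, with a median of -0.05. One higher member was the cytokine gene Gdf15, at 60.2 and 70.4 CPM with A2S at day 2 and 19.6 and 32.3 CPM with FBS at day 3 (log2 1.34 ± 0.19, adjusted p = 3.72e-06).

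Of the secreted inflammatory genes and proteases, 11 of 31 fell (7 without A2S day 2 replicate B or FBS day 3 replicate B) and 3 rose, with a median of -0.96 that becomes -0.89 with members at 0 in a group set to their bound. Without FBS day 3 replicate B the median was -0.28, and without replicate A -0.64. The chemokine gene Cxcl1 was at 12.1 and 14.4 CPM in the A2S day 2 libraries, against 117 and 60.1 CPM in the FBS day 3 libraries (log2 -2.73 ± 0.33, adjusted p = 2.23e-07) and Igfbp3, an IGF binding protein gene, at 111 and 123 CPM with A2S at day 2 and 489.7 and 475 CPM with FBS at day 3 (log2 -2.04 ± 0.20, adjusted p = 5.64e-09). Interferon-response genes gave 1 of 37 higher (2.70%) and 3 lower (8.11%), under the 11.9% and 13.8% of all genes. These genes gave 0 higher and 0 lower by DESeq2, and 9 higher and 5 lower when the compared groups were fitted alone. They took 4600 and 4568 CPM in sum with A2S, 3979 and 4272 CPM with FBS, 2001 and 1902 CPM in MEFs and 1019 and 1095 CPM in A2S day 4. Both early groups lay above MEFs, and Isg15, a ubiquitin-like modifier gene, was at 129 and 118 CPM with A2S at day 2 and 145 and 101 CPM with FBS at day 3 and 4.25 and 2.54 CPM in MEFs (log2 0.00 ± 0.47, adjusted p = 1 between the media). Listed feeder barcodes were also frequent in these libraries, as given above, and their part was not tested.

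The shares of epithelial and pluripotency genes called higher, 21.2% and 22.5%, lay above the 11.9% of all genes, but fell when a library was left out, as did the share of all genes. Epithelial genes had 7 of 33 higher and 3 lower, with a median of 0.26 (0.21 with bounds). After thinning 3 were higher, without FBS day 3 replicate A 3 and without replicate B 4. The median was 0.0 after thinning or without either A2S library. Of the 33 members, 12 passed the count filter when the compared groups were fitted alone, with 5 higher and 3 lower. The others passed it through other groups of the series. The desmosome gene Dsc2 rose to 27.7 and 31.0 CPM in the A2S day 2 libraries, against 10.7 and 12.2 CPM in the FBS day 3 libraries (log2 1.36 ± 0.24, adjusted p = 6.09e-05). The desmosome gene Dsp (log2 1.47 ± 0.36, adjusted p = 0.0028; adjusted p = 0.0896 without FBS day 3 replicate A) and the claudin gene Cldn3 (log2 3.02 ± 0.47, adjusted p = 1.18e-05; 4.41 after thinning) rose. The keratin genes of simple epithelia fell, with Krt19 at 138 and 96.2 CPM with A2S at day 2 and 277 and 266 CPM with FBS at day 3 (log2 -1.22 ± 0.20, adjusted p = 2.56e-05) and Krt18 at 2.38 and 1.57 CPM with A2S at day 2 and 25.3 and 20.0 CPM with FBS at day 3 (log2 -3.52 ± 0.68, adjusted p = 2.13e-04). Cdh1, E-cadherin, gave no call, at 4.75 and 7.87 CPM with A2S at day 2 and 4.89 and 5.01 CPM with FBS at day 3 against 603 and 708 CPM in ESCs. Epcam had 8 UMIs with A2S and 1 with FBS, a ratio of 6.47 (95% counting interval 0.868 to 287). Pluripotency genes had 9 of 40 higher and 2 lower, with a median of 0.67, and 2 were higher after thinning, 3 without FBS day 3 replicate A, 5 without FBS day 3 replicate B and 4 without A2S day 2 replicate A. The median was 0.0 after thinning or without A2S day 2 replicate B and 0.28 without the 5% of cells with most UMIs. When the compared groups were fitted alone, 13 of the 40 passed the count filter, with 6 higher, 2 lower and a median of 0.32. The other members passed it through other groups of the series. In sum, pluripotency genes took 690 and 637 CPM with A2S at day 2 and 657 and 581 CPM with FBS at day 3. One of the higher members, Fgf4, an ESC growth factor gene, was at 22.4 and 15.7 CPM with A2S at day 2 and 7.20 and 7.83 CPM with FBS at day 3 and 166 and 173 CPM in ESCs (log2 1.33 ± 0.25, adjusted p = 1.83e-04; adjusted p = 0.0637 after thinning). Pou5f1, Sox2 and Nanog were under 1 CPM in each of the 4 libraries. Klf4, a reprogramming factor whose transgene, if any, cannot be separated from the endogenous gene here, was at 33.0 and 38.4 CPM in the A2S day 2 libraries, against 89.2 and 87.4 CPM in the FBS day 3 libraries (log2 -1.30 ± 0.17, adjusted p = 7.03e-07).

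Shares of cells with a UMI show how widely these differences were spread. Cells were thinned to 5000 UMIs, which left 325 of 352 A2S day 2 and 413 of 469 FBS day 3 cells, with medians before thinning of 22608 and 24478 UMIs with A2S and 16483 and 13761 UMIs with FBS. Intervals are exact 95% binomial ones and cover counting error only, and 2 libraries per group allow no exact permutation p under 0.05, so no test was made. Egr1 had a UMI in 0.923% of A2S cells (0.191 to 2.67) and in 54.0% of FBS cells (49.1 to 58.9), against 61.3% of MEFs, whose medians were 23060 and 19763 UMIs. Not thinned, the share was 2.27% of A2S cells and 66.3% of FBS cells. Dusp6 was seen in 4.62% of A2S cells and 19.6% of FBS cells, against 18.5% of MEFs. Mgp was seen in 6.46% of A2S cells and 53.8% of FBS cells, with 0.37% of ESCs, a cell type without a matrix programme, whose medians were 17725 and 15546 UMIs. Egr1 was thus seen in few A2S cells, while the matrix gene Col1a1 was found in 43.7% of A2S and 47.2% of FBS cells, against 96.7% of MEFs and 0 of 270 ESCs, which allows a share of up to 1.11% by a limit of 3 cells and 1.36% by the exact interval.

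Genes that rose were found in a minority or a majority of A2S cells, depending on the gene. Chchd10 had a UMI in 61.2% of A2S cells (55.7 to 66.6) and 14.5% of FBS cells (11.3 to 18.3), against 1.88% of MEFs. Bex1 was seen in 28.0% of A2S cells and 3.39% of FBS cells, against 0.144% of MEFs. Slc13a5 was seen in 20.9% of A2S and 1.45% of FBS cells, and Sprr2b in 18.8% of A2S and 1.45% of FBS cells, while ESCs had none in 270 cells for either gene. Not thinned, Chchd10 was in 84.7% of A2S and 23.5% of FBS cells. Cdh1 was in 3.38% of A2S cells and 1.69% of FBS cells, with intervals that overlap, against 91.1% of ESCs and 0.144% of MEFs. Chchd10 and Sprr2b had CPM of the same order with A2S, but Chchd10 was found in more cells.

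**Figure D5:**
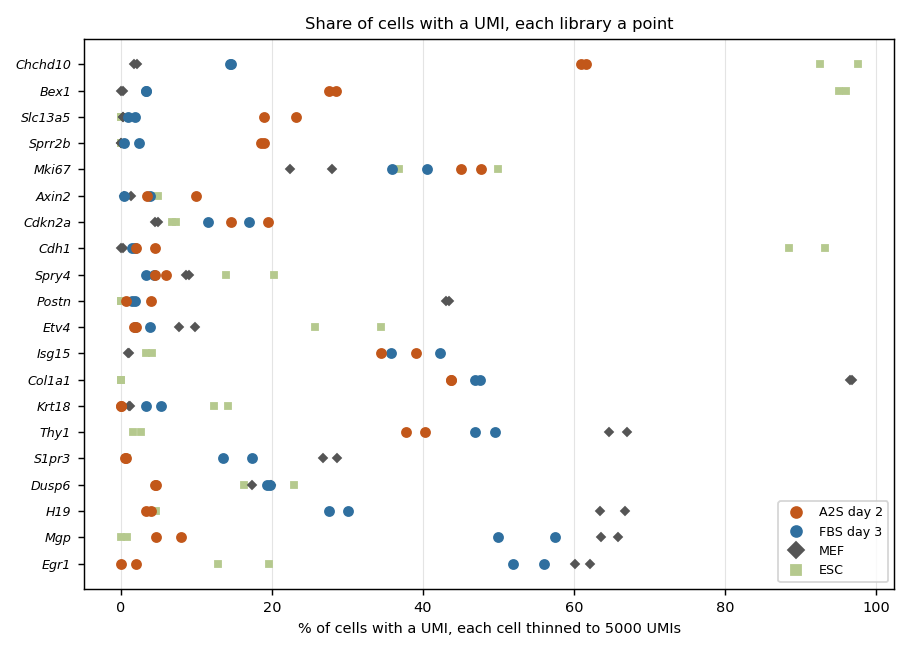
Percent of cells with a UMI of each gene after thinning every cell to 5000 UMIs (horizontal axis), with a point per library for A2S day 2, FBS day 3, MEFs and ESCs. Genes at the top have a larger share with A2S, Chchd10 first, and genes at the bottom a larger share with FBS, Egr1 and Mgp among them.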

How the data were processed

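Single cells were captured on the ddSEQ instrument and read at the 3' end with unique molecular identifiers (UMIs). Whole-number UMI counts per gene and cell were deposited by the authors, and the submitters' processing notes name STAR and mm10, with no other step given in the sources used here. Feeder barcodes listed by the authors were dropped, matched by barcode alone, and counts were summed per library. No doublet caller was run on sums. edgeR 4.0.16 (R 4.3.3) fitted all 32 libraries with TMM factors, filterByExpr and a quasi-likelihood test, with Benjamini-Hochberg adjustment over 13228 genes, and recovery of known changes was tested on simulated data. Replicate letters did not pair libraries (correlations of deviations 0.023 and 0.0027). Gene lists, contrasts and rules were chosen with earlier results of these data known. Named were the 15 most changed called genes each way at 50 CPM or more, up to 4 called members each way per list and a fixed panel. Some genes that the rule names are not reported here. Alternatives were DESeq2 1.42.0, RLE factors, no filter on low counts, fewer groups, a replicate block, other cell filters, cells thinned to 5000 UMIs and each library left out.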

Additional observations from a re-analysis of the deposited data

Results flagged for a closer look

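For 9 of the immediate-early, ERK and Wnt genes named by the rule, the change with A2S in fibroblasts differed from that in ESCs by the test of the difference itself (edgeR, adjusted p under 0.05; 37.6% of all genes passed it). The difference is that of log2 fold changes, A2S day 2 over FBS day 3 minus A2S ESCs over ESCs, with 2 libraries in each of the 4 groups. It was -8.58 ± 0.39 for Egr1, -2.39 ± 0.35 for Errfi1, -1.77 ± 0.25 for Dusp14 and -1.37 ± 0.22 for Tcf7l2. It was 2.19 ± 0.34 for Phlda1, 1.20 ± 0.26 for Kremen1 and 0.825 ± 0.23 for Lgr4. The test was not passed for Lgr4 without A2S day 2 replicate A (0.377, adjusted p = 0.22), for Kremen1 with listed cells kept (0.325, adjusted p = 0.238) or after thinning (adjusted p = 0.229), and for Tcf7l2 after thinning (adjusted p = 0.0535). For Egr2 it was -8.64 ± 1.23 and for Egr3 -6.56 ± 2.27, fitted values that are no bound, since neither gene had a UMI in the A2S day 2 libraries. Egr3 did not pass without A2S day 2 replicate A (adjusted p = 0.0556) or B (0.0672), A2S ESC replicate A (-3.01, adjusted p = 1) or ESC replicate B (0.0507), or after thinning (0.0642). Dusp14 rose with A2S in both cell types, by log2 0.97 ± 0.14 in fibroblasts and 2.74 ± 0.20 in ESCs, while Phlda1 had 0.47 ± 0.18 in fibroblasts and -1.72 ± 0.29 in ESCs. Lgr4 fell in both, with -0.97 ± 0.17 in fibroblasts and -1.80 ± 0.16 in ESCs. The cells, their day and their reference culture all differ between the 2 contrasts and cannot be told apart. Groups of 2 libraries allowed no check of single libraries for outlying values.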

How the results depend on the processing

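Of 3396 calls between A2S day 2 and FBS day 3, the count was 1658 after thinning to 5000 UMIs (687 higher, 971 lower) and 2200 to 2365 without 1 of the 4 libraries (1017 to 1077 higher, 1183 to 1332 lower); fewer UMIs, genes or samples enter these fits. Thinning also left 3914 calls in A2S ESCs against ESCs and 2649 in the difference of contrasts. DESeq2 gave 1085 higher and 1422 lower, listed cells kept 2026 and 1878. The replicate block gave 1561 higher and 1814 lower, and since the letters do not pair the libraries this changes no reading. Of 2723 values of the 210 named genes under alternatives, 2497 kept the call or its absence, 211 lost it, 13 gained it and 2 reversed between A2S day 2 and FBS day 3. With listed cells kept, Plagl1 stood at log2 -0.26 in place of 0.47, Laptm5 at 0.14 in place of -0.87, and Hbegf in A2S ESCs against ESCs at 0.975 in place of -1.82; the cause was not tested. Without 1 library, 57 named genes lost their call. Genes of a few UMIs are limited by depth.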

Other observations

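Hox and other DOT1L-sensitive homeobox genes had 9 of 33 lower and 1 higher with A2S at day 2 (median -0.47, edgeR), against 13.8% of all genes lower. Lower calls numbered 4 after thinning or without A2S day 2 replicate A and 5 without A2S day 2 replicate B. One lower member was Hoxc8, which is outside the naming rule, at 47.0 and 38.7 CPM with A2S at day 2 and 68.8 and 73.9 CPM with FBS at day 3 (log2 -0.74 ± 0.18, adjusted p = 0.00255). Of the members that the rule names, Hoxb9 lost its call by DESeq2 (adjusted p = 0.103), with listed cells kept (0.0646) and after thinning (0.46). Hoxc9 lost its call after thinning (adjusted p = 0.205). Hoxd13 was at log2 -0.69 without A2S day 2 replicate B, and Hoxc6 at log2 -0.51 without A2S day 2 replicate A. Dot1l itself gave no call (log2 0.54 ± 0.23, adjusted p = 0.0843), and of its 19 tested list members 3 rose and 1 fell, with 1 rising without A2S day 2 replicate A and 0 without replicate B. Aff1 was at log2 0.61 ± 0.14 (adjusted p = 0.00155; 0.0522 without A2S day 2 replicate B and 0.145 after thinning). Ascorbate-dependent dioxygenases and DNA methyltransferases had 2 of 27 higher and 5 lower, with no call after thinning, 0 higher and 1 lower without A2S day 2 replicate A, and 3 lower without FBS day 3 replicate A. TGF-beta and BMP response genes had 5 of 27 higher and 10 lower (6 lower with listed cells kept), with the ligand gene Tgfb2 higher (log2 1.02 ± 0.21, adjusted p = 4.50e-04) and Ltbp1, which stores the latent ligand, lower (log2 -1.77 ± 0.16, adjusted p = 4.53e-10). Notch genes had 3 of 14 higher and 4 lower, with 1 higher and 2 lower without FBS day 3 replicate A, 1 higher without replicate B and 1 of 11 each way after thinning. The feedback gene Nrarp rose (log2 1.44 ± 0.25, adjusted p = 4.23e-05) and the receptor gene Notch1 fell (log2 -0.95 ± 0.16, adjusted p = 4.87e-05, and adjusted p = 0.061 after thinning). The shares called higher and lower were 15.8% and 5.26% in the Dot1l list and 7.41% and 18.5% in the dioxygenase and methyltransferase list. They were 18.5% and 37.0% in the TGF-beta and BMP list and 21.4% and 28.6% in the Notch list. Over all genes they were 11.9% and 13.8%.

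NRF2 target and aldehyde-metabolising genes had 8 of 29 higher (5 without FBS day 3 replicate B) and 6 lower. The metallothionein genes Mt1, at 798 and 506 CPM with A2S at day 2 and 265 and 219 CPM with FBS at day 3 (log2 1.43 ± 0.18, adjusted p = 4.23e-07), and Mt2 (log2 1.56 ± 0.18, adjusted p = 9.57e-08), near-identical paralogs, rose, as did Gclm, of glutathione synthesis (log2 1.05 ± 0.11, adjusted p = 1.28e-08), while the transferase gene Gstp1 fell (log2 -1.68 ± 0.25, adjusted p = 5.30e-06). Nuclear-encoded respiratory chain genes had 5 of 40 higher and 10 lower, with 2 higher and 5 lower after thinning, 2 higher without A2S day 2 replicate A and 6 lower without either FBS library. Cornified envelope genes had 3 of 12 higher and 1 lower, and germline genes 1 of 31 higher and 0 lower. When the compared groups were fitted alone, 7 cornified envelope genes and no germline gene passed the count filter. The marker lists of the following other cell types had 5 to 17 tested members, against 11.9% of all genes called higher and 13.8% lower. Macrophage and blood markers had 1 of 13 higher and 1 lower (summed 59.4 and 93.7 CPM with A2S, 95.0 and 72.7 CPM with FBS). Of these, 4 were tested when the compared groups were fitted alone. Skeletal muscle markers had 0 of 5 either way and neural markers 2 of 17 higher and 1 lower. Adipocyte and chondrocyte markers had 1 of 7 higher (14.3%) and 2 lower (28.6%). Hba-a1, Hbb-bt, Myod1, Myog, Pax7, Sox10, Gfap, Adipoq and Plin1 were at 0 in all 4 libraries.

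A pair of genes under the 50 CPM limit of the naming rule, picked after their values were seen, had large changes. Qrfpr, a neuropeptide receptor gene, was at 40.6 and 58.4 CPM in the A2S day 2 libraries, against 0 and 1.57 CPM in the FBS day 3 libraries (log2 5.97 ± 0.64, adjusted p = 6.26e-08), with log2 4.96 without FBS day 3 replicate A and 10.3 without replicate B. As3mt, an arsenite methyltransferase gene, was at 17.4 and 16.6 CPM with A2S at day 2 and 1.15 and 0.313 CPM with FBS at day 3 (log2 4.44 ± 0.40, adjusted p = 5.33e-10; 5.60 without FBS day 3 replicate A, 3.84 without replicate B and 2.98 when listed cells were kept). The summed interferon-response genes of the AS day 4 libraries, which entered no comparison here, differed between replicates, with 1369 CPM in A and 4406 CPM in B.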
